A study of Rattus norvegicus with 25 samples.

Results

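The 10 genes described here are the matrix metalloproteinases (MMPs) Mmp2, Mmp3, Mmp9, Mmp12 and Mmp14, the related protease Adamts1 and the tissue inhibitors of metalloproteinases (TIMPs) Timp1, Timp2, Timp3 and Timp4. They were taken by symbol from a table of read counts, where 10 of 10 were found among 34315 genes. RNA-seq was done on polyA-selected RNA from the hippocampus of male Sprague-Dawley rats aged 6 to 7 weeks. The 5 groups held 5 libraries each. Rats of TD-CCI, TCF-CCI and TNF-CCI underwent a controlled cortical impact (CCI), a piston blow to the exposed cortex that models traumatic brain injury, and were given thymus, thymus cytosolic factor or thymus nuclear factor. TNF in this group name is that nuclear factor, not the cytokine. Vehicle-CCI rats had the impact and vehicle, and Vehicle-sham rats had a sham operation and vehicle. The sources used here give no dose, no time after the impact and no side of the brain. Whether the libraries of a group came from separate animals is not stated, and p-values therefore cover the variation among libraries, part of which may be technical.

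MMPs are zinc enzymes that cut proteins of the extracellular matrix and the cell surface. Most are made as inactive precursors, and TIMPs block the active enzymes by binding their catalytic site. In the brain they act on the basal lamina of blood vessels and on the nets of matrix around neurons, and they are studied after trauma for their part in opening the blood-brain barrier and in remodelling tissue. Many MMP genes, and Timp1, are switched on by inflammatory signals, whereas Timp2, Timp3 and Timp4 are expressed in the uninjured brain.

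Mmp12 and Mmp3 lie close together on chromosome 8, at 4581785 to 4591687 and 4640397 to 4653963 of mRatBN7.2, both on the plus strand. Reference promoters, from 250 bases before to 50 after the annotated start, were held for 7 of the 10 genes in RefSeq's GRCr8 assembly. Those of 4 genes are shown. Mmp12 had the largest fold change, and its neighbour Mmp3 stayed near 0. Adamts1 rose, and Timp1 had 1 library, TNF-CCI 1, far above its other libraries. In build GRCr8 the promoters of these genes, in this order, are chr8:12866402-12866701 (plus strand), chr8:12925031-12925330 (plus), chr11:38427335-38427634 (minus) and chrX:3771073-3771372 (minus). Capitals mark a match to the AP-1 motif TGANTCA, a site bound by Fos and Jun proteins, or to the TATA box TATAAA.
Mmp12: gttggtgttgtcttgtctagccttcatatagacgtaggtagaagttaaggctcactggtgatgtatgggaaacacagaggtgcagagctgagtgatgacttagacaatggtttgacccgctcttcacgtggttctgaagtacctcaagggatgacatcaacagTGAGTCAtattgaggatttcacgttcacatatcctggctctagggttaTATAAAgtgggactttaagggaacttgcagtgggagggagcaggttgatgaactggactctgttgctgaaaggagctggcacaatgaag
Mmp3: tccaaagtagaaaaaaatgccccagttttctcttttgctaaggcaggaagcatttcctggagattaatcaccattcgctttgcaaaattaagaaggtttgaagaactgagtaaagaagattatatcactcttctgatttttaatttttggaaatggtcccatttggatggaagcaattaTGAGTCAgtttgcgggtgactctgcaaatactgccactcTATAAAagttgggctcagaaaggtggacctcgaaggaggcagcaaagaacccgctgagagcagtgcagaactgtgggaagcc
Adamts1: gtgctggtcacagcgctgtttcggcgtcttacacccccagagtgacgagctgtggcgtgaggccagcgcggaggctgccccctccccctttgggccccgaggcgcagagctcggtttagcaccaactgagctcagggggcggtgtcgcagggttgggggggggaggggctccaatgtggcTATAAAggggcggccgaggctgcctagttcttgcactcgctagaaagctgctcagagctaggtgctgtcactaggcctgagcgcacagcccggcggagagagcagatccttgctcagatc
Timp1: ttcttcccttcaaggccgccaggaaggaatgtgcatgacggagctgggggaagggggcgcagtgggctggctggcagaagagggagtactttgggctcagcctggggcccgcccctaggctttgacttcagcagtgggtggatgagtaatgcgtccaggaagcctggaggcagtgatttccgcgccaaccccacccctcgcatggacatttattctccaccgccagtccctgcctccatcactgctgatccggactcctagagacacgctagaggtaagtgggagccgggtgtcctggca

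The Mmp12 and Mmp3 promoters each held an AP-1 match upstream of a TATA box, in the same order. In Mmp12 the AP-1 letters began 87 bases and the TATA box 39 bases before the start, and in Mmp3 they began 71 and 32 bases before it. An AP-1 match was found in 7.33% of all 33469 promoters of the same length, and a TATAAA match in 14.2%. Neither exact pattern was present in any of the 4 TIMP promoters, and Adamts1 held a TATAAA match alone, 70 bases before its start. The looser NF-kB pattern, GGG and CC with any 5 letters between, matched 6 of the 7 promoters, all but that of Mmp3, and 47.3% of all promoters. The STAT pattern TTCNNNGAA (8.87% of promoters) matched none of the 7, and the Sp1 pattern GGGCGG (33.1%) matched Adamts1, Timp1, Timp2 and Timp3. All were searched on both strands, and in Timp1 and Timp3 some NF-kB matches overlap each other or a Sp1 match. Near matches, such as tgagtaa in the Timp1 promoter for AP-1, were not counted. A match is a run of letters, not evidence of binding, and the lack of a match is not evidence that no site is there.

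**Figure D1:**
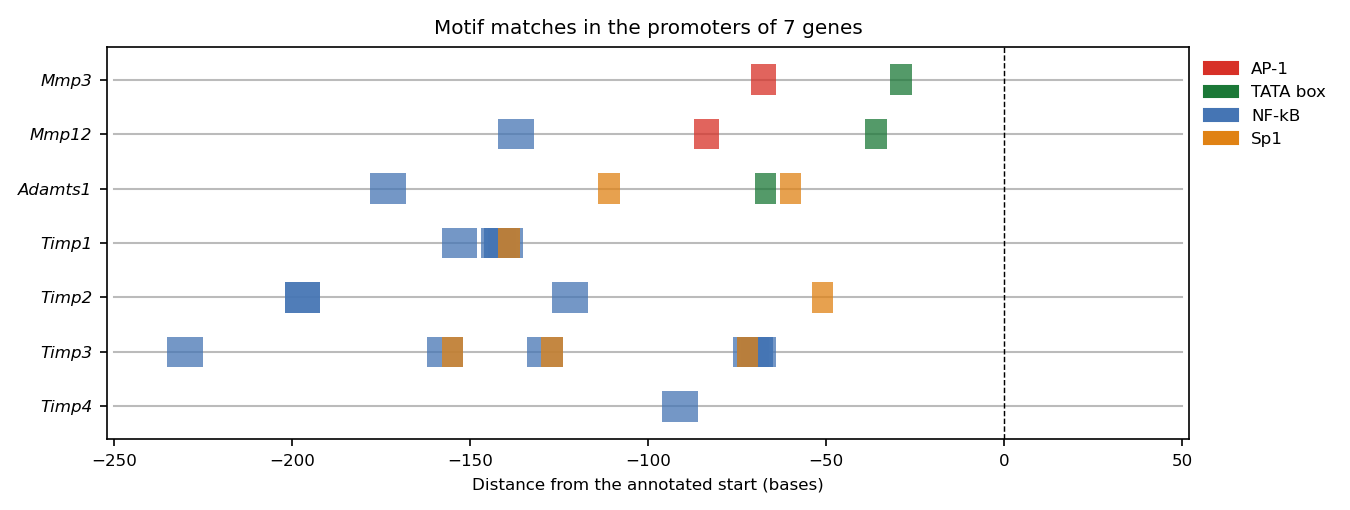
Matches of 4 motifs in the promoters of 7 genes, by distance in bases from the annotated start (dashed line at 0). AP-1 (red) and the TATA box (green) stand together only in Mmp3 and Mmp12 of the 7, and the STAT pattern had no match.

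Library totals ran from 27.3 to 44.9 M counts (1e6 counts). The share of counts on mitochondrial ribosomal RNA ran from 2.18% to 25.6%, with the highest values in Vehicle-sham 2 (25.6%) and Vehicle-sham 3 (17.3%), and Vehicle-sham 2 held the highest level of the 25 libraries in 20.4% of 16907 genes with a mean of at least 1 CPM. All 10 markers of hippocampal neurons were detected in every group. Levels are given in CPM (counts per 1e6 TMM-scaled counts) with the standard deviation (SD). Fold changes are log2 values fitted by edgeR and carry a standard error (SE). A gene passed the test, and is said to have risen or fallen, at an adjusted p under 0.05 over the 21064 genes tested.

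Averaged over the 4 CCI groups, Mmp2, Mmp12, Mmp14 and Adamts1 rose over Vehicle-sham, 4 of the 9 tested genes. None fell, and the other 5 (Mmp9 and the 4 TIMPs) did not pass. In this comparison 2.24% of all genes tested rose, 3.68% fell and 5.92% passed in either direction. DESeq2 called these 4 genes and also Timp1 and Timp2, beside 8.49% of genes, and limma voom called Mmp2, Mmp14 and Timp2, beside 6.16%. By voom Mmp12 (adjusted p = 0.101) and Adamts1 (0.0761) did not pass, and with mitochondrial rRNA share as a covariate in edgeR Mmp14 (adjusted p = 0.0773) and Adamts1 (0.0611) did not. The median log2 fold change of the 9 genes was 0.71, beside 0.01 over all genes. The members were chosen with earlier results of these data known, so these shares and medians are a description and do not test the set. Mmp3 was below the filter on low counts. Injury and supplement cannot be told apart in this average, nor in a supplement group over sham, because the sham rats had vehicle only.

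**Figure D2:**
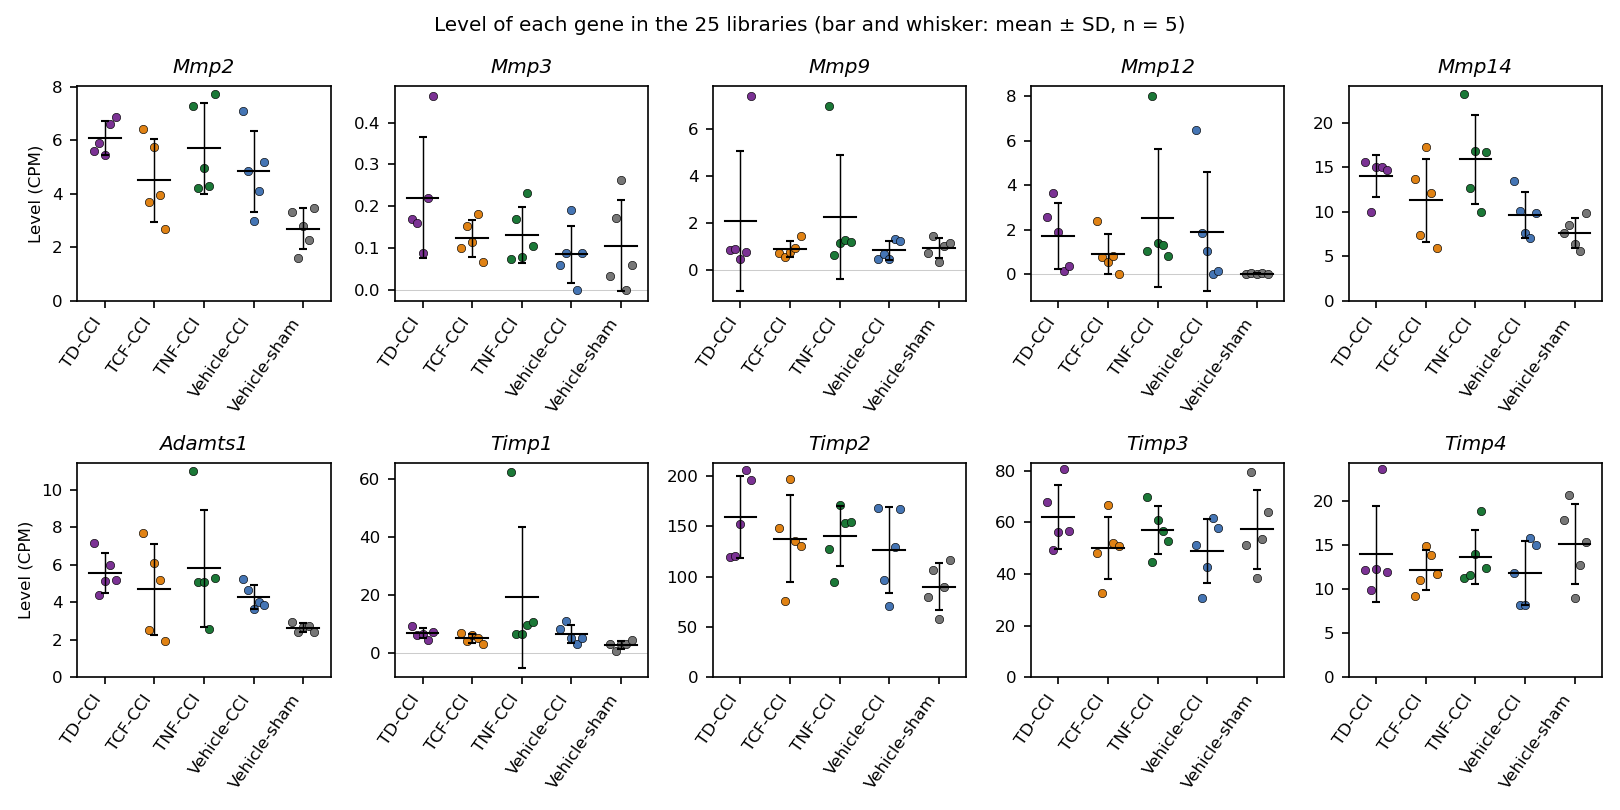
Level in CPM of the 10 genes in each of the 25 libraries (points, 5 per group), with the mean ± SD of each group. Mmp2, Mmp12 and Adamts1 are higher in most CCI libraries than in Vehicle-sham, while Mmp9 and Timp1 have libraries far above the rest, at 7.43 and 62.3 CPM.

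Mmp12, macrophage elastase, which phagocytes make to cut elastin, was near 0 in sham and higher in nearly all injured libraries. It had 2.56, 3.67, 1.91, 0.137 and 0.365 CPM in TD-CCI libraries 1 to 5, and 2.42, 0.789, 0.542, 0.818 and 0.0332 CPM in TCF-CCI. TNF-CCI libraries had 1.05, 8.02, 1.42, 1.33 and 0.845 CPM, and Vehicle-CCI libraries 6.51, 1.84, 1.08, 0 and 0.175 CPM. In Vehicle-sham it had 0.0331, 0.0569, 0, 0.0652 and 0.0295 CPM. Thus 18 of 20 injured libraries exceeded all 5 sham libraries. The exceptions were TCF-CCI 5, with 1 count, and Vehicle-CCI 4, with 0 counts, which allow up to 0.100 CPM (3 counts) in Vehicle-CCI 4. The summed level of 10 microglia and macrophage markers was 170 and 219.9 CPM in them, within the sham range of 143.3 to 221.4 CPM. TCF-CCI 2 lay in that range too, at 181.6 CPM, with Mmp12 at 0.789 CPM. A part of these cells in the Mmp12 levels was not tested. The sham level rests on 5 counts in all, against 1235 in the CCI libraries, a ratio of 49.3 with a 95% interval of 21.1 to 152 that covers counting error only. Ratios over sham were 47.7 in TD-CCI, 25.2 in TCF-CCI, 65.5 in TNF-CCI and 54.9 in Vehicle-CCI. TNF-CCI 2 held 286 of the 476 counts of its group and Vehicle-CCI 1 held 221 of 325, and without them the ratios of these groups were 31.7 and 22.1 and the fitted log2 fold changes 4.88 and 4.30, in place of 5.99 and 5.60. The fitted log2 fold change of the CCI average was 5.39 ± 1.29 (edgeR adjusted p = 0.0247). No member varied more among the injured in relative terms than Mmp12, Mmp9 and Timp1, with coefficients of variation of 119%, 131% and 134% over the 20 CCI libraries. That of Timp1 was 35.1% without TNF-CCI 1, and that of Mmp9 was 35.9% without TNF-CCI 1 and TD-CCI 5. For Mmp12 it was still 85.8% without TNF-CCI 2 and Vehicle-CCI 1.

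Mmp2, gelatinase A, which cuts collagen IV and gelatin, had 5.60, 5.92, 5.46, 6.61 and 6.87 CPM in TD-CCI and 6.42, 3.70, 5.76, 3.97 and 2.69 CPM in TCF-CCI. It had 7.29, 4.21, 4.97, 4.30 and 7.73 CPM in TNF-CCI and 7.10, 4.86, 3.00, 4.10 and 5.18 CPM in Vehicle-CCI. Vehicle-sham libraries had 3.31, 1.59, 2.82, 2.28 and 3.48 CPM. All TD-CCI and TNF-CCI libraries lay above every sham library, and only TCF-CCI 5 and Vehicle-CCI 3 lay within the sham range. The gene averaged 5.29 ± 1.44 CPM in CCI (SD, n = 20) and 2.70 ± 0.772 CPM in sham (n = 5), and rose by 0.95 ± 0.22 (edgeR adjusted p = 0.0240).

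Mmp14, the membrane-type enzyme that activates the precursor of MMP2 at the cell surface, had 15.6, 9.94, 15.01, 15.04 and 14.7 CPM in TD-CCI and 13.7, 7.44, 17.3, 12.1 and 5.91 CPM in TCF-CCI. Its TNF-CCI levels were 23.3, 12.7, 16.8, 10.0 and 16.7 CPM, and its Vehicle-CCI levels 13.5, 10.1, 7.65, 7.11 and 9.92 CPM. Sham libraries had 7.68, 8.54, 6.43, 5.61 and 9.87 CPM. TD-CCI and TNF-CCI did not overlap sham, whereas 2 of 5 TCF-CCI and 2 of 5 Vehicle-CCI libraries fell within its range. The CCI average was 12.7 ± 4.30 CPM, against 7.62 ± 1.69 CPM in sham, and the gene rose by 0.71 ± 0.21 (edgeR adjusted p = 0.0479). By single group over sham it was at 0.88 ± 0.26 in TD-CCI, 0.57 ± 0.26 in TCF-CCI and 1.06 ± 0.26 in TNF-CCI. In Vehicle-CCI, injury without a supplement, it was at 0.34 ± 0.26 (edgeR adjusted p = 0.582).

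Adamts1, a secreted protease that cuts the proteoglycans aggrecan and versican, had 7.15, 4.40, 5.14, 5.98 and 5.17 CPM in TD-CCI and 7.71, 2.55, 6.10, 5.18 and 1.93 CPM in TCF-CCI. It had 11, 5.11, 5.11, 2.59 and 5.30 CPM in TNF-CCI and 5.24, 4.66, 3.64, 4.04 and 3.87 CPM in Vehicle-CCI. Sham libraries were close together, at 2.98, 2.45, 2.71, 2.74 and 2.42 CPM. Adamts1 was the only member whose Vehicle-CCI libraries all lay above every sham library, which 0.465% of genes tested did, and TCF-CCI 5 lay below all of sham. In the CCI average it rose by 0.93 ± 0.27 (edgeR adjusted p = 0.0426), at 5.09 ± 2.00 CPM in CCI and 2.66 ± 0.231 CPM in sham.

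These 4 calls differed in how far they depended on single libraries. Without Vehicle-sham 2, 7 genes of the whole table were called higher and 7 lower, against 1248 called with all libraries. None of the 4 passed in that fit, with edgeR adjusted p-values of 0.0762 for Mmp2, 0.0820 for Mmp12, 0.117 for Mmp14 and 0.139 for Adamts1. Their fold changes without Vehicle-sham 2 were 0.85, 5.54, 0.78 and 0.92, beside 0.95, 5.39, 0.71 and 0.93 with all libraries. Mmp2 and Mmp12 passed with any other library left out, Adamts1 in 12 of 25 such fits and Mmp14 in 8 of 25. Adamts1 passed without TD-CCI 2 or 4, TCF-CCI 2, 4 or 5, TNF-CCI 1, 2, 3 or 4, Vehicle-CCI 3 or 4, or Vehicle-sham 1. Mmp14 passed without TD-CCI 2, TCF-CCI 2 or 5, TNF-CCI 2 or 4, Vehicle-CCI 3 or 4, or Vehicle-sham 5. Over the 25 fits the adjusted p ran from 0.0284 to 0.139 for Adamts1 and from 0.0331 to 0.122 for Mmp14, and the fold changes of these 4 genes stayed positive.

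**Figure D3:**
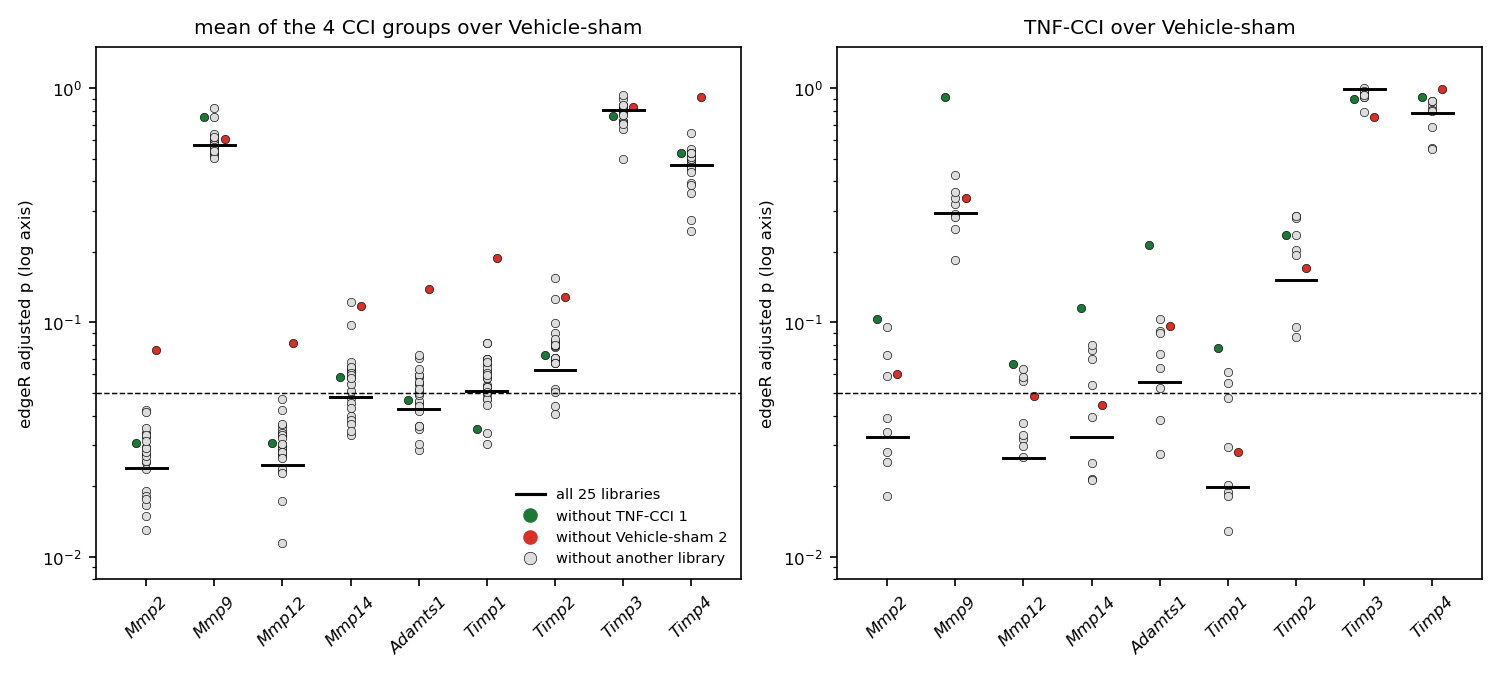
Adjusted p (log axis) of the 9 tested genes with all libraries (black bars) and with each library of the groups compared left out (points); the dashed line is 0.05. On the left, removing Vehicle-sham 2 (red) moves Mmp2, Mmp12, Mmp14 and Adamts1 above the line, and on the right removing TNF-CCI 1 (green) moves Mmp2, Mmp12, Mmp14 and Timp1 above it. In these fits 14 and 0 genes of the whole table passed.

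Mmp9, gelatinase B, a secreted enzyme carried by neutrophils and made by many activated cells, passed in no comparison but had 2 libraries far above the rest. TD-CCI libraries had 0.844, 0.886, 0.470, 0.769 and 7.43 CPM, and TCF-CCI libraries 0.728, 0.546, 0.741, 0.909 and 1.43 CPM. TNF-CCI libraries had 7.00, 0.645, 1.16, 1.26 and 1.20 CPM, and Vehicle-CCI libraries 0.471, 0.690, 0.474, 1.30 and 1.22 CPM. Sham libraries had 0.728, 1.42, 0.338, 1.01 and 1.15 CPM. TD-CCI 5 and TNF-CCI 1 were at least 4.90 times the highest of the other 23 libraries, and 17 of 20 CCI libraries lay within the sham range. The CCI average over sham was 0.55 ± 0.56 (edgeR adjusted p = 0.571), and it was -0.10 without these 2 libraries. The summed level of 8 neutrophil markers was 15.7 CPM in TD-CCI 5 and 32.3 CPM in TNF-CCI 1, where it ranked number 10 and 2 of the 25 libraries, against 13.7 CPM at most in sham. It was 33.9 CPM in Vehicle-CCI 2 and 31.0 CPM in Vehicle-CCI 1, where Mmp9 was at 0.690 and 0.471 CPM. Of the 7 neutrophil markers tested, 2 had values above 0 in the CCI average, with a median of -0.25 and 1 called higher. In TNF-CCI over sham 2 were above 0 as well, with a median of -0.74 and 1 called higher. Over all genes 51.2% and 51.1% were above 0 in these comparisons, and 2.24% and 1.71% rose. Elane, neutrophil elastase, was at 0 in every TD-CCI and TNF-CCI library. The part of neutrophils in the Mmp9 levels was not tested.

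Mmp3, stromelysin 1, which cuts many matrix proteins and activates other MMPs, had 0 to 14 counts per library and 109 in all. It averaged 0.220 ± 0.145 CPM in TD-CCI, 0.123 ± 0.0450 in TCF-CCI, 0.131 ± 0.0673 in TNF-CCI, 0.0844 ± 0.0687 in Vehicle-CCI and 0.105 ± 0.109 CPM in sham (SD, n = 5 each). It had 36 counts in TD-CCI and 14 in Vehicle-CCI. Without a filter on low counts, edgeR gave 0.42 ± 0.58 for the CCI average over sham (adjusted p = 0.707), 1.13 ± 0.69 for TD-CCI over sham (0.417) and 1.33 ± 0.68 for TD-CCI over Vehicle-CCI (1.00), and none of the 9 comparisons passed. Of the injured libraries, 1 of 20 CCI libraries, TD-CCI 5 with 0.464 CPM, lay above every sham library.

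Among the inhibitors, Timp1, the inducible member, was 1.46 ± 0.45 higher in the CCI average and just missed the threshold (edgeR adjusted p = 0.0509). It had 9.46, 6.33, 6.52, 4.64 and 7.33 CPM in TD-CCI and 6.92, 4.07, 6.16, 5.36 and 3.19 CPM in TCF-CCI. It had 62.3, 6.68, 6.48, 9.83 and 10.6 CPM in TNF-CCI and 8.36, 10.99, 5.09, 3.00 and 5.24 CPM in Vehicle-CCI. Sham libraries had 3.31, 0.683, 3.23, 3.00 and 4.36 CPM. In all, 17 of 20 injured libraries, among them each of TD-CCI and TNF-CCI, exceeded the sham range, and TNF-CCI 1 was 5.67 times the next highest library. Timp1 passed when TNF-CCI 1 was left out (1.17, adjusted p = 0.0350), and also without TD-CCI 4, TNF-CCI 2, 3 or 4, Vehicle-CCI 4 or Vehicle-sham 5 (adjusted p from 0.0301 to 0.188 over the 25 fits).

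Timp2, which blocks MMP2 and at the cell surface also takes part in its activation by MMP14, was the most abundant member. It averaged 141 ± 38.1 CPM in CCI (n = 20) and 89.98 ± 22.99 CPM in sham (n = 5). The difference was 0.64 ± 0.21 and did not pass (edgeR adjusted p = 0.0628), with 16 of 20 injured libraries above the sham range. It passed without Vehicle-CCI 3 or without Vehicle-sham 5 (adjusted p from 0.0406 to 0.154 over the 25 fits that leave out a library). Group means were 159 ± 40.5 in TD-CCI, 137 ± 43.0 in TCF-CCI, 140 ± 29.8 in TNF-CCI, 126 ± 42.9 in Vehicle-CCI and 89.98 ± 22.99 CPM in Vehicle-sham.

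Timp3, which is bound to matrix and also blocks ADAM and ADAMTS proteases, and Timp4, found mainly in brain, heart and muscle, did not pass. Timp3 averaged 54.5 ± 12.0 CPM in CCI and 57.3 ± 15.4 CPM in sham, a difference of -0.08 ± 0.16 (edgeR adjusted p = 0.804). For Timp4 the levels were 12.9 ± 3.61 and 15.2 ± 4.51 CPM, a difference of -0.23 ± 0.19 (edgeR adjusted p = 0.472). In each gene 1 of 20 CCI libraries lay above and 2 below every sham library. The sign of the Timp3 difference turned to 0.10 without Vehicle-sham 2.

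The make-up of the TIMP transcripts is given as a description, with no test. Divided by exon length, Timp2 took 57.2 ± 8.34% of the summed TIMP level in CCI and 49.97 ± 2.97% in sham, and Timp1 13.4 ± 10.5% in CCI and 6.79 ± 3.39% in sham. Timp3 took 18.0 ± 2.92% in CCI, from 12.4% to 24.2%, and 25.5 ± 2.31% in sham, from 23.5% to 29.4%. Timp4 took 11.3 ± 2.66% in CCI, from 5.31% to 16.4%, and 17.8 ± 3.18% in sham, from 14.9% to 22.1%. Both were lower in the injured libraries, with ranges that overlap at the edge. In TNF-CCI 1, Timp1 alone took 54.0% and Timp2 28.3%, while in the other 24 libraries Timp1 took 1.23% to 23.7%. The shares sum to the whole, so a higher share of 1 inhibitor lowers the others by construction.

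**Figure D4:**
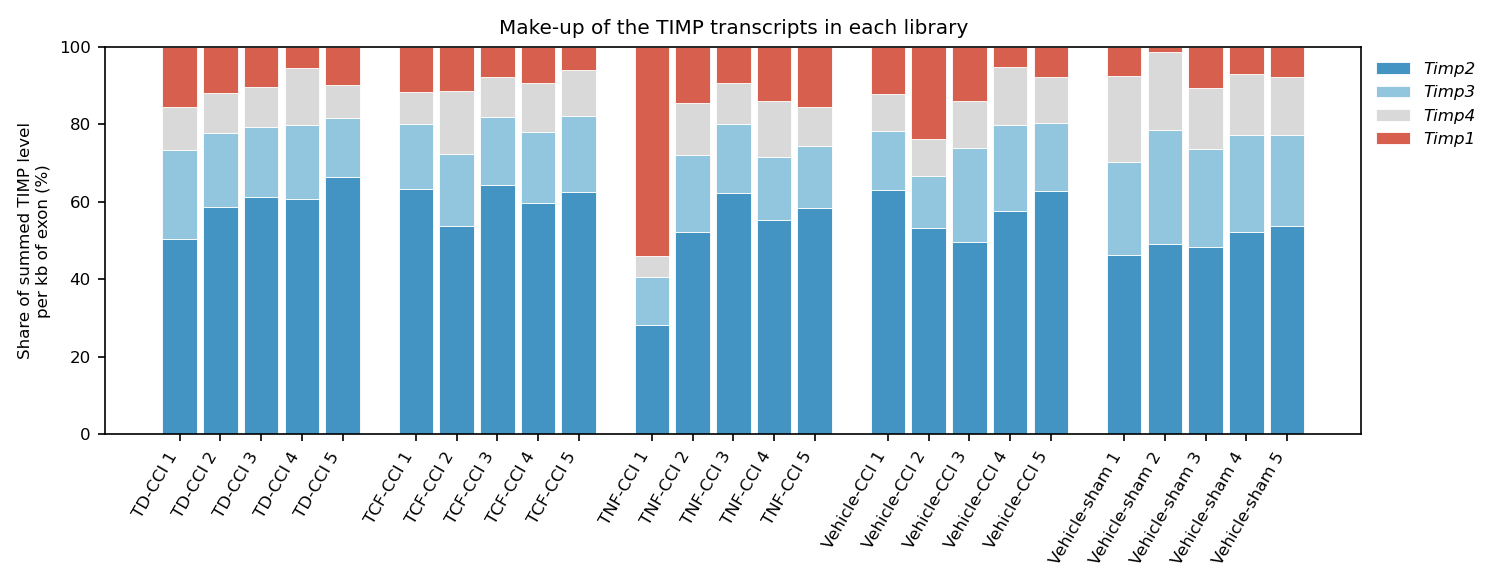
Share in percent of each TIMP in the summed TIMP level per kb of exon, 1 bar per library, in 5 groups of 5. Timp2 (dark blue) leads in every library but TNF-CCI 1, where Timp1 (red) takes 54.0%, and Timp3 (light blue) is lowest there at 12.4%.

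Counting conventions bear on these genes, since the sources used here do not state the strand setting. Timp1, Timp3 and Timp4 lie within the synapsin genes Syn1, Syn3 and Syn2 on the opposite strand, with 0 shared exon bases in the deposited annotation. Reads from unspliced synapsin RNA over TIMP exons could not be told apart without strand. The synapsin genes did not pass in the CCI average, at -0.24 ± 0.21 for Syn1, -0.14 ± 0.22 for Syn2 and 0.20 ± 0.19 for Syn3 (edgeR adjusted p = 0.487, 0.732 and 0.524). Timp2 shares 133 exon bases (3.67% of its exons) with Cep295nl on its own strand, and Mmp2 shares 137 (4.51%) with LOC120098543 on the other. Cep295nl was at 0.93 ± 0.31 (edgeR adjusted p = 0.0716) and LOC120098543 at 0.55 ± 0.20 (0.0885) in the CCI average, and neither passed. Shared reads between these genes and Timp2 or Mmp2 were not tested. Adamts1, Mmp3, Mmp9, Mmp12 and Mmp14 overlapped no other gene of the table.

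Of the single groups over sham, TNF-CCI alone had members past the threshold by edgeR. Library totals ran from 35.2 to 44.9 M counts in TNF-CCI and from 27.3 to 33.7 M in sham. The share of mitochondrial rRNA ran from 2.95% to 10.9% in TNF-CCI and from 2.18% to 25.6% in sham. Timp1 rose by 2.70 ± 0.54 (edgeR adjusted p = 0.0198), Mmp12 by 5.99 ± 1.38 (0.0262), Mmp14 by 1.06 ± 0.26 (0.0324) and Mmp2 by 1.07 ± 0.26 (0.0324), where 1.71% of all genes rose and 2.57% passed in either direction. Adamts1 was 1.13 ± 0.32 higher and did not pass by edgeR (adjusted p = 0.0554), but did by DESeq2 (adjusted p = 0.0189). In these 4 genes the TNF-CCI and sham libraries did not overlap, which held for 2.58% of genes in the upward direction. Without TNF-CCI 1, without TNF-CCI 5 or without Vehicle-sham 4, 0 genes of the whole table passed, against 542 with all libraries. Each of the 4 thus lost its call in these fits, where the edgeR adjusted p-values of the 4 ran from 0.0553 to 0.115. Without Vehicle-sham 3, Mmp2 (0.0590), Mmp12 (0.0586) and Mmp14 (0.0698) lost it as well, and so did Mmp2 without Vehicle-sham 2 (0.0603) and Mmp14 without TNF-CCI 3 (0.0543). Adamts1 passed without TNF-CCI 2 or without TNF-CCI 4. With mitochondrial rRNA share as a covariate Mmp12 was the only one of them to pass, and by limma voom the only one not to. Without TNF-CCI 1 the Timp1 difference was 1.51 (adjusted p = 0.0775), and that of Mmp9 was 0.21 in place of 1.29.

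In TD-CCI, TCF-CCI and Vehicle-CCI no member passed over sham, and few or no genes of the whole table did by edgeR. By edgeR 0% of genes passed in TD-CCI and Vehicle-CCI and 0.0142% in TCF-CCI (none of them higher). The counts depended on the fit: edgeR called 368 genes in Vehicle-CCI without Vehicle-CCI 4 and 139 in TD-CCI with only the groups compared, and limma voom called 388 in TCF-CCI. DESeq2 called 2 members in TD-CCI (Mmp2 and Mmp12) and Mmp12 alone in TCF-CCI and Vehicle-CCI, beside 1%, 1.53% and 1.15% of genes, and limma voom called 0 members. At an unadjusted p under 0.05 there were 6 of 9 members in TD-CCI, 5 in TCF-CCI and 4 in Vehicle-CCI, beside 16.5%, 18% and 12.7% of all genes. TD-CCI had the tightest Mmp2 levels, from 5.46 to 6.87 CPM, at 1.17 ± 0.26 over sham (edgeR adjusted p = 0.134). Its 5 libraries lay above every sham library in Mmp2, Mmp12, Mmp14, Timp1, Timp2 and Adamts1, which 2.36% of all genes did. Over sham, Mmp12 was at 4.53 ± 1.42 in TCF-CCI (edgeR adjusted p = 0.164) and at 5.60 ± 1.38 in Vehicle-CCI (0.137), and Timp1 at 0.80 ± 0.52 (0.410) and 1.15 ± 0.52 (0.362). The other members called in the CCI average were lower in Vehicle-CCI over sham than in that average. Mmp2 was at 0.84 ± 0.26 (edgeR adjusted p = 0.196), Adamts1 at 0.69 ± 0.32 (0.372) and Mmp14 at 0.34 ± 0.26 (0.582). Against Vehicle-CCI, 6 of 9 members were above 0 in TCF-CCI (median 0.04), with Mmp2, Mmp12 and Timp1 below, beside 44.4% of all genes above 0. In TD-CCI 8 of 9 and in TNF-CCI 9 of 9 were above 0, beside 46.75% and 49.4% of genes. The 4 comparisons with sham share the sham libraries. In the authors' deposited table for TD-CCI, tested by DESeq2 against the control, 6 members had an adjusted p under 0.05 (Mmp2, Mmp12, Mmp14, Timp1, Timp2 and Adamts1), where 1.97% of genes were higher. The authors' deposited table listed 3 for TNF-CCI (Mmp2, Mmp14 and Adamts1), without a p for Timp1 and Mmp12, and Mmp12 alone for TCF-CCI and for Vehicle-CCI, beside 2.72%, 1.13% and 0.308% of genes higher.

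**Figure D5:**
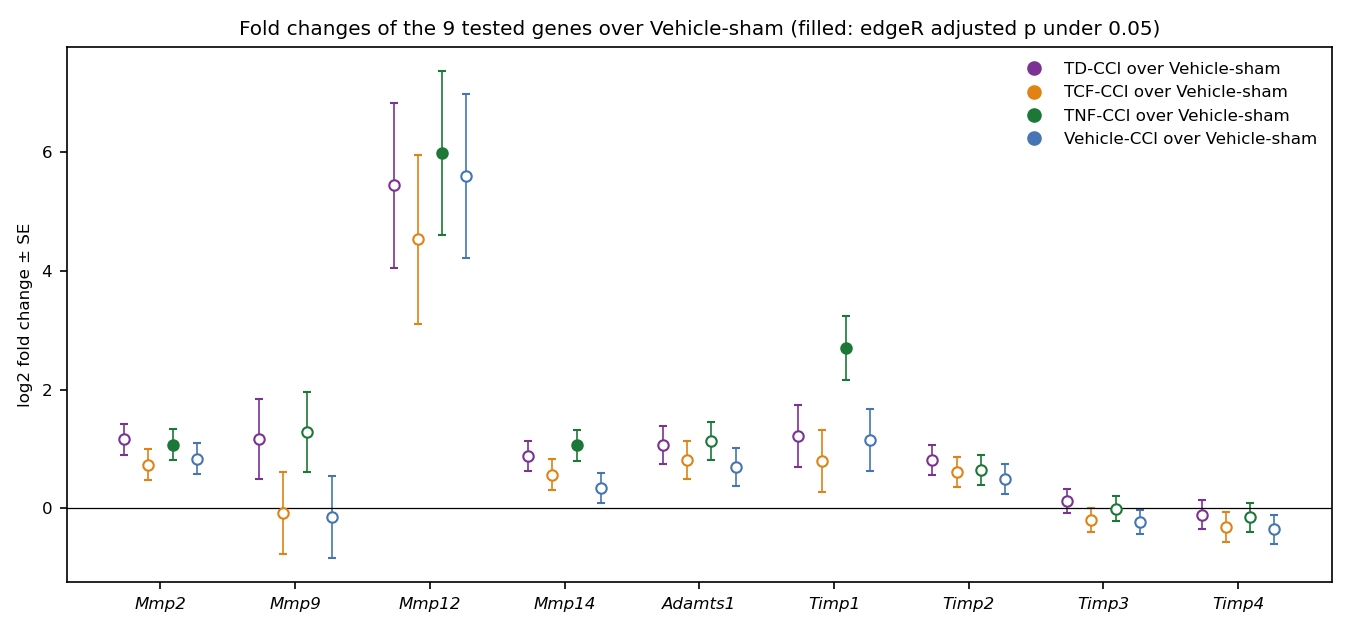
Log2 fold change ± SE over Vehicle-sham of the 9 tested genes in the 4 CCI groups, filled where the edgeR adjusted p was under 0.05. Mmp12 is highest in all 4 groups, from 4.53 to 5.99, and Timp1 stands out in TNF-CCI at 2.70.

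The supplements were then compared with Vehicle-CCI, for what they changed in the injured hippocampus. No member passed for the mean of the 3 supplements, nor for any of them alone, and 0% of all genes did by edgeR. By DESeq2 no member passed either, with 0 genes for the mean and for TCF-CCI and 1 each for TD-CCI and TNF-CCI, and by limma voom 0 genes passed. At an unadjusted p under 0.05 there was 1 of 9 members for the mean of the supplements, 1 in TD-CCI, 0 in TCF-CCI and 3 in TNF-CCI, beside 1.89%, 1.75%, 1.44% and 3.46% of all genes. Over the 3 supplements Mmp14 had the smallest p, at 0.50 ± 0.22 (edgeR adjusted p = 1.00). In TD-CCI it was Mmp14 at 0.54 ± 0.26 and Mmp9 at 1.31 ± 0.67, which turned to -0.16 without TD-CCI 5, and in TCF-CCI Mmp12 at -1.07 ± 0.93 and Mmp14 at 0.23 ± 0.26, by edgeR. In TNF-CCI Timp1 was at 1.55 ± 0.51 and Mmp14 at 0.72 ± 0.26, with edgeR adjusted p-values of 1.00. Without TNF-CCI 1 the Timp1 value in TNF-CCI was 0.36. For the mean of the supplements the other members were at 0.94 ± 0.58 (Mmp9), 0.42 ± 0.42 (Timp1), 0.32 ± 0.26 (Adamts1), 0.20 ± 0.17 (Timp3), 0.20 ± 0.21 (Timp2), 0.16 ± 0.20 (Timp4), 0.15 ± 0.21 (Mmp2) and -0.28 ± 0.73 (Mmp12). Without TNF-CCI 1 and TD-CCI 5 together the Mmp9 value was 0.094, and without TNF-CCI 1 the Timp1 value was 0.026. A p that misses the threshold does not show that the groups are alike.

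By group mean, neighbours in the order of levels mostly did not differ beyond the larger SD of the pair. TD-CCI or TNF-CCI had the highest mean of each member except Timp4, which was highest in sham. Steps larger than the SD were found at the lower end, for Mmp2 and Timp1 between TCF-CCI and sham and for Adamts1 between Vehicle-CCI and sham. For Mmp9 sham ranked in the middle, at 0.930 CPM, below TNF-CCI (2.25) and TD-CCI (2.08) and above TCF-CCI (0.871) and Vehicle-CCI (0.832). That order rests on single libraries: without TNF-CCI 1 the TNF-CCI mean was 1.06 CPM, and without TD-CCI 5 the TD-CCI mean was 0.742 CPM, below sham.

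Genes that go with these enzymes were listed as well, beside 2.24% of all genes higher and 3.68% lower in the CCI average. Without Vehicle-sham 2, 14 of all genes passed in that comparison and none of the genes of these lists did, and without TNF-CCI 1 none passed in TNF-CCI. Of the other MMP genes 11 of 17 were tested in the CCI average, 0 rose and 1 fell: Mmp24, a membrane-type enzyme of neurons, at -0.55 ± 0.14 (edgeR adjusted p = 0.0285), while Mmp19 (0.62 ± 0.22) and Mmp16 (-0.31 ± 0.13) did not pass. Of 18 other ADAMTS genes 1 rose, Adamts9 (0.83 ± 0.22, adjusted p = 0.0338), all 18 had values above 0, and their median was 0.33. Of all genes 51.2% were above 0. Without Vehicle-sham 2, 13 of the 18 were above 0, with a median of 0.27. Adamts12 (0.60 ± 0.21) and Adamts2 (0.95 ± 0.34) did not pass. Of 8 ADAM proteases, which release proteins from the cell surface, Adam33 rose by 2.48 ± 0.58 (adjusted p = 0.0246), while Adam17 (0.25 ± 0.11) and Adam15 (0.21 ± 0.13) did not pass.

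Activators and surface regulators showed the most calls, with 6 of 19 tested higher and 1 lower. A2m, a broad trap for proteases, rose by 1.90 ± 0.39, Serping1, the C1 inhibitor, by 2.42 ± 0.53, and Plaur, the receptor of the plasminogen activator urokinase, by 2.18 ± 0.51 (edgeR adjusted p = 0.0222, 0.0222 and 0.0246). Plau, which encodes urokinase, rose by 1.60 ± 0.47, the hyaluronan receptor Cd44 by 0.96 ± 0.28, and Lcn2, which forms a complex with MMP9, by 1.56 ± 0.46. Bsg, known as an inducer of MMPs, fell by 0.46 on the log2 scale (SE 0.14, adjusted p = 0.0469). Among 29 matrix and barrier proteins 4 rose: osteopontin Spp1 (3.50 ± 0.73), fibronectin Fn1 (1.01 ± 0.22), collagen Col1a1 (0.96 ± 0.21) and tenascin Tnc (0.88 ± 0.21). Of 25 tested inducers, 5 rose: Tgfb1 (1.39 ± 0.34), its receptor Tgfbr2 (1.06 ± 0.26), Socs3 (1.93 ± 0.50), and oncostatin M with its receptor, Osm (1.24 ± 0.34) and Osmr (1.25 ± 0.36). None of the 6 lists had a called member in TD-CCI, TCF-CCI or Vehicle-CCI over sham. TNF-CCI had 5 activators, 4 matrix proteins, 5 inducers, 1 ADAMTS and 1 ADAM gene higher.

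Markers of microglia and macrophages were higher in the CCI average too, as were those of some other cell types. Of 10 markers 5 rose and all 10 had values above 0 in the CCI average, with a median of 0.96, beside 2.24% and 51.2% of all genes. Without Vehicle-sham 2 no marker of any list passed, and all 10 microglia markers were still above 0, with a median of 1.01. Their summed level ran from 282 to 401 CPM in TD-CCI, 170 to 406 in TCF-CCI, 301 to 548 in TNF-CCI, 220 to 600 in Vehicle-CCI and 143 to 221 CPM in sham, with no marker at 0 in any group. Of 8 fibroblast and meningeal markers 2 rose (137 to 345, 94.6 to 216, 138 to 239, 121 to 180 and 99.8 to 204 CPM in the same order of groups), and of 8 astrocyte markers 2 rose. Of 8 endothelial markers 0 passed, and of 10 hippocampal neuron markers 2 fell and all 10 had values below 0 (9 of 10 without Vehicle-sham 2). Values lay above 0 in 7 of 8 fibroblast and meningeal markers (median 0.65), 7 of 8 endothelial (0.39) and 5 of 8 astrocyte markers (0.11). Without Vehicle-sham 2 these were 8 of 8 (0.81), 8 of 8 (0.37) and 7 of 8 (0.34). The part of these cell types in the results was not tested. In bulk tissue more cells of a type and more RNA per cell cannot be told apart.

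The genes most alike in pattern to each member over the 25 libraries are given as a description, with Pearson's r on log2 (CPM + 0.5) among 16907 genes. Mmp2 went with the integrin Itgb2 (r = 0.93), the progranulin gene Grn (0.93) and the receptor Ptafr (0.93), and Mmp12 with Lilrb4 (0.90), Ifitm1 (0.88) and the scavenger receptor Msr1 (0.88). Mmp14 went with A2m (0.90), Igsf10 (0.89) and Msn (0.89), and Adamts1 with Tgfbr2 (0.91), Stom (0.88) and Pld1 (0.88). Timp1 went with Tspan11 (0.90), Stk40 (0.90) and Alpk3 (0.89), and without the 2 libraries farthest from its median, TNF-CCI 1 and Vehicle-sham 2, r was 0.61, 0.68 and 0.86. Timp2 went with Adra2a (0.94), Tspan9 (0.91) and Rab3b (0.91), Timp3 with Serpine2 (0.89), Ckap4 (0.88) and Ubb (0.87), and Timp4 with Polr2m (0.86), Aldh5a1 (0.86) and Slc25a15 (0.85). Mmp9 went with Trh (0.88), Acvr1c (0.86) and LOC120095953 (0.85), which rests on TD-CCI 5 and TNF-CCI 1: without them r was 0.06, 0.53 and 0.45.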

How the data were processed

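The submitters deposited read counts per gene, whole numbers with no normalization, for 25 libraries. Tools listed in the submitters' processing notes are featureCounts, STAR, Salmon and DESeq2 (no versions), with the build mRatBN7.2. The authors also deposited, for each CCI group over the control, DESeq2 log2 fold changes with raw and adjusted p-values, per the file headers. Of 34322 genes, 7 with empty cells were left out.

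Counts were tested with edgeR 4.0.16 in R 4.3.3 (TMM factors, filterByExpr by group, robust quasi-likelihood F test, 1 fit of 25 libraries, 9 comparisons, Benjamini-Hochberg adjustment over 21064 genes). CPM values were computed here. Exon length was that of the deposited table, and levels per length are CPM per kb. Sequences came from RefSeq, build GRCr8. Single libraries far from their group were found by Dixon's gap test. All 10 members were named in each library, and from each list its called genes or the 3 of smallest p. Members and lists were chosen with earlier results of these data known. The code was tested on simulated data. Alternatives were DESeq2 size factors, no filter, a filter at 1 CPM, a replicate block, mitochondrial rRNA share as a covariate, only the groups compared, limma 3.58.1 voom, DESeq2 1.42.0 and leaving out libraries, and a fit without TNF-CCI 1 and TD-CCI 5 and list counts without Vehicle-sham 2 or TNF-CCI 1 were added after the data were seen. Library totals of 27.3 to 44.9 M counts set the counting precision. The sources used here mention no molecular identifiers, so intervals and the limits for a count of 0 (3 counts) cover counting error only.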

Additional observations from a re-analysis of the deposited data

Results flagged for a closer look

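In 7 of 50 gene and group sets, 1 library stood apart from the other 4 by Dixon's gap test, where chance gives about 1 in 20. Mmp9 had 7.43 CPM in TD-CCI 5, against 0.470 to 0.886 CPM in the other TD-CCI libraries, and 7.00 CPM in TNF-CCI 1, against 0.645 to 1.26 CPM in the other TNF-CCI libraries. Timp1 had 62.3 CPM in TNF-CCI 1, against 6.48 to 10.6 CPM in the rest of its group. Mmp12 was 8.02 CPM in TNF-CCI 2, beside 0.845 to 1.42 CPM, and 6.51 CPM in Vehicle-CCI 1, beside 0 to 1.84 CPM. Mmp14 was low in TD-CCI 2, at 9.94 CPM, beside 14.7 to 15.6 CPM. Timp4 was high in TD-CCI 4, at 23.6 CPM, beside 9.94 to 12.4 CPM. On the log2 scale Mmp12 in Vehicle-CCI 1 no longer stood apart, and Timp1 in Vehicle-sham 2 (0.683 CPM) did. TD-CCI 4 also had the highest summed level of 8 thalamus markers of the 25 libraries (377 CPM) and ranked number 2 in oligodendrocyte markers (22721 CPM). TNF-CCI 1 had the highest sum of astrocyte (13563 CPM), endothelial (182.8 CPM) and pericyte and smooth muscle markers (159.3 CPM). It ranked number 2 in microglia (548.4 CPM) and neutrophil markers (32.3 CPM). Vehicle-CCI 1 had the highest sum of microglia (599.9 CPM) and ependyma markers (303.1 CPM). TNF-CCI 2, with more Mmp12, ranked number 10 in the microglia markers (335.8 CPM). Whether these markers have a part in the Timp4, Timp1 or Mmp12 values was not tested.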

How the results depend on the processing

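Of the 4 members called in the CCI average, 2 (Mmp2 and Mmp12) passed with mitochondrial rRNA share as a covariate and 0 without Vehicle-sham 2 and 3 together, and leaving out single libraries gave 0 to 5 called members (Timp1 or Timp2 among the 5). Of the 4 in TNF-CCI over sham, 1 (Mmp12) passed with that covariate and 1 with only the groups compared, 0 without Vehicle-sham 2 and 3, 0 without TNF-CCI 1 and TD-CCI 5, while single libraries out gave 0 to 5 called members (Adamts1 among the 5, and 1, Timp1, without Vehicle-sham 3). Where 0 had passed, DESeq2 called 2 in TD-CCI, 1 in TCF-CCI and 1 in Vehicle-CCI over sham, a fit of only the groups compared called 2 in TD-CCI, and leaving out single libraries gave 0 to 1 in Vehicle-CCI (Mmp12 without Vehicle-CCI 4, with 368 genes of the whole table). Library numbers were not taken to pair the samples. Same-number correlations of deviations ran from -0.416 to 0.523 in all, and from 0.00846 to 0.471 for number 1. Of 25 libraries, 10 had their closest library of another group under their own number, which 4 of 20 candidates carry. Whether libraries of the same number were handled together is not stated. With the number as a replicate block, 1 member (Mmp2) passed in TD-CCI, Timp1 in the CCI average and Adamts1 in TNF-CCI (adjusted p = 0.0318) passed as well, all-gene calls were 45 in TD-CCI, 1863 in the CCI average and 1190 in TNF-CCI, and Mmp12 for the supplements over Vehicle-CCI was 0.23. All-gene calls in the CCI average were 1248, with 2070 without the filter, 672 with the covariate, 0 without Vehicle-sham 2 and 3, 659 without TNF-CCI 1 and TD-CCI 5, 2338 by DESeq2 and 14 without Vehicle-sham 2 at the lowest to 2117. In TNF-CCI they were 542, with 74, 0, 1, 197 (only the groups compared), 946 (voom), 1370 (DESeq2) and 0 to 1563. Without length division the mean TIMP shares over all libraries were 3.78% in place of 12.1% for Timp1, 27.2% in place of 19.5% for Timp3, 6.67% in place of 12.6% for Timp4 and 62.3% in place of 55.8% for Timp2. Signs turned without TNF-CCI 1 and TD-CCI 5 for Mmp9 in the CCI average (-0.10), TD-CCI over sham (-0.34) and TD-CCI over Vehicle-CCI (-0.17). They turned by voom for Timp3 (0.0216 in the CCI average, 0.11 in TNF-CCI) and Mmp12 (supplements 0.82, TCF-CCI 0.0501 over Vehicle-CCI), and for Timp3 in TNF-CCI without the filter (0.0218) or Vehicle-sham 2 and 3 (0.0376). With single libraries out, Mmp9 ran from -0.38 to 0.0612 in Vehicle-CCI, -0.31 to 1.42 in TD-CCI and -0.33 to 0.14 in TCF-CCI over sham, and from -0.16 to 1.57 in TD-CCI over Vehicle-CCI. Timp3 ran from -0.19 to 0.10 in the CCI average and -0.12 to 0.17 in TNF-CCI, Timp4 from -0.38 to 0.0505 in TD-CCI and -0.29 to 0.0114 in TNF-CCI over sham, and Mmp12 from -0.64 to 1.03 (supplements) and -1.79 to 0.24 (TCF-CCI) over Vehicle-CCI. The causes were not tested. Levels near 0 limit Mmp3 and the sham value of Mmp12.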

Other observations

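Other genes were high in the 2 libraries with high Mmp9, looked up after these values were seen. TNF-CCI 1 and TD-CCI 5 were the 2 highest of 25 libraries in 104 of 16907 genes with a mean of at least 1 CPM, where the 300 pairs of libraries averaged 56.4 genes and 42 pairs had more. Trh, which encodes thyrotropin-releasing hormone, had 56.4 CPM in TNF-CCI 1 and 41.1 CPM in TD-CCI 5, against 1.82 CPM at most in the other 23. Npy, neuropeptide Y, had 94.8 and 47.4 CPM in these libraries, against 22.1 CPM at most elsewhere, and Ptgs2, cyclooxygenase 2, 67.5 and 21.6 CPM against 14.0. Acvr1c, an activin receptor, had 70.5 and 65.2 CPM, against 36.5.

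TNF-CCI 1 held the highest level of all libraries in 1439 of those 16907 genes (8.51%). Ranked by the ratio of TNF-CCI 1 to the next library, Timp1 was number 10. The list was led by Lox, lysyl oxidase, which crosslinks collagen and elastin, at 156.7 CPM against 6.93 CPM, and Inhba, an activin subunit, stood just after Timp1 at 106.3 CPM against 19.4 CPM. The causes were not tested.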
